A study of Homo sapiens with 4 samples.

Results

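The miR-183 cluster is a set of 3 microRNA genes, MIR183, MIR96 and MIR182, that lie next to each other on human chromosome 7 and are read from the same strand. Its 6 mature products, the 5p and 3p arm of each hairpin, were taken by name from a table of 2039 mature miRNAs, and all 6 were present. The table came from small RNA sequencing of HFE-145, a human gastric epithelial cell line. Both libraries of 1 group carried YAP5SA, an overexpressed form of the Hippo pathway effector YAP whose inhibitory phosphorylation sites are mutated so that it stays active. Both libraries of the other group carried the vector. All 4 libraries came from the same line, no other treatment or time was given, and the labels do not say whether the duplicates were separate cultures, so the spread between them may be technical.

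A microRNA gene is transcribed as part of a longer precursor, from which Drosha cuts a hairpin and Dicer then cuts a short duplex. One strand of the duplex is usually kept by Argonaute and guides it to mRNAs that pair with the seed, and the other strand is mostly degraded. This cluster is best known from sensory cells of the eye, the inner ear and the nose, and mutations in the miR-96 seed cause hearing loss in mice and humans. It is also made in many epithelia and is often abundant in carcinomas, and miR-96 and miR-182 are known repressors of FOXO transcription factors.

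The mature sequences show which members of the cluster resemble each other and where. They are given from RefSeq (GRCh38.p14), where all 6 matched the deposited names and sequences, with the seed, bases 2 to 8, in capitals.
hsa-miR-183-5p: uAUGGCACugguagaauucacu
hsa-miR-96-5p: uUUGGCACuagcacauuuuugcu
hsa-miR-182-5p: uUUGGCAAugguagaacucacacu
hsa-miR-183-3p: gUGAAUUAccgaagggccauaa
hsa-miR-96-3p: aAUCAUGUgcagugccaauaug
hsa-miR-182-3p: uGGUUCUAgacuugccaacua

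No pair of members has the same 7-base seed. miR-96-5p and miR-182-5p share bases 2 to 7 (UUGGCA) and part at base 8, whereas miR-183-5p carries AUGGCA at the same place. miR-183-5p and miR-96-5p part at base 2 and share bases 3 to 8 (UGGCAC). The 3 5p arms share bases 3 to 7 (UGGCA), a stretch that 9 of the 2039 mature miRNAs in the table (0.441%) hold at that position. Over the whole arm the likeness is arranged differently. Counted from base 1 without gaps, miR-182-5p and miR-183-5p are identical at 18 of 22 positions. miR-183-5p and miR-96-5p are identical at 13 of 22, and miR-182-5p and miR-96-5p at 12 of 23. The 3p arms share no seed with each other or with a 5p arm.

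The hairpins of MIR96 and MIR182 are shown with both mature arms in capitals, since the arms are compared with each other in the values that follow.
MIR96 hairpin: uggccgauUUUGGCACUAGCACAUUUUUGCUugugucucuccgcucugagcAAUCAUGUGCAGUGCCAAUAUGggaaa
MIR182 hairpin: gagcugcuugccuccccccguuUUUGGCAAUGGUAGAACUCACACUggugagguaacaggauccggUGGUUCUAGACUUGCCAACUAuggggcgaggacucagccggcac

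On GRCh38, by GENCODE 29, the 3 genes lie on the minus strand of chromosome 7 and none overlaps another annotated gene. MIR183 lies first in the direction of transcription (chr7:129774905-129775014), followed after 135 bases by MIR96 (chr7:129774692-129774769) and after a further 4199 bases by MIR182 (chr7:129770383-129770492). The whole cluster spans 4632 bases. The nearest protein-coding gene is NRF1, which encodes a transcription factor of nuclear genes for mitochondria, and its edge is 13301 bases from MIR182.

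Total counts ranged from 136903 to 217235 per library. Counts of replicate libraries were farther apart than reads drawn from 1 pool would be (chi-square over its degrees of freedom 10.1 for the YAP5SA pair and 20.5 for the vector pair), so neither pair was treated as 1 library deposited more than once; separate preparations of the same RNA could differ as much. YAP1 mRNA was not measured in this assay, so the overexpression itself was not checked. The list of epithelial miRNAs, namely the miR-200 family, miR-203a, miR-205-5p and miR-375, was present with 8 of 8 members. It summed to 12292 and 15350 TMM-normalized CPM (counts scaled to library size) in the YAP5SA libraries. In the vector libraries it summed to 29397 and 25853 CPM. Of its 7 tested members 4 were called lower in YAP5SA cells, as were 3.49% of all tested miRNAs (21 of 602). miR-200a-3p at a log2 fold change of -1.43, miR-200c-3p at -0.76 and miR-375 at 0.11 were not called. miR-205-5p, not tested, had 6 and 14 counts in the YAP5SA libraries, against 5 and 3 in the vector libraries. Neural and sensory miRNAs, with 4 of 4 in the table, summed to 136 and 167 CPM in the YAP5SA libraries. In the vector libraries their sum was 68.7 and 105 CPM. miR-9-5p, the only 1 tested, had 13 and 17 counts in the YAP5SA libraries, against 5 and 2 in the vector libraries. Its log2 fold change was 1.96 (edgeR adjusted p = 0.052). miR-204-5p had 3 and 7 counts against 2 and 1, and miR-211-5p had 6 and 5 against 6 and 11. miR-124-3p had at most 3 counts in a library. Blood miRNAs, with 6 of 6 in the table, summed to 1460 and 1219 CPM in the YAP5SA libraries. In the vector libraries they summed to 2135 and 2215 CPM. Most of this was miR-486-5p, the only 1 tested, with a log2 fold change of -0.85 (edgeR adjusted p = 0.072). miR-223-3p had 14 and 4 counts in the YAP5SA libraries, against 1 and 1 in the vector libraries. miR-142-5p had 17 and 4 against 7 and 6, miR-142-3p 12 and 4 against 5 and 9, and miR-144-3p 11 and 4 against 7 and 9. miR-451a had at most 5 counts. Fibroblast and smooth muscle miRNAs, miR-143-3p and miR-145-5p, summed to 131 and 41.9 CPM in YAP5SA libraries, against 84.5 and 98.6 CPM in vector libraries. The part of these lists in the results below was not tested. The libraries also differed in the share of counts in miRNAs with a mean count under 20, which was 10.5% and 5.56% in YAP5SA replicates 1 and 2, against 3.41% and 3.15% in vector replicates 1 and 2. The TMM factors moved with it, at 1.38 and 1.03 in the YAP5SA libraries and 0.888 and 0.793 in the vector libraries, and the members' fold changes are therefore also given with library totals.

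In all 4 libraries the cluster was read mainly as 1 molecule. miR-182-5p was the most abundant member, miR-183-5p was next and miR-96-5p came after it, with the 3 passenger arms far below. Together the 6 members made up 0.451% and 0.417% of all counts in YAP5SA replicates 1 and 2, against 0.525% and 0.469% in vector replicates 1 and 2. Both YAP5SA shares were lower than both vector shares. On the same scale this order held for 1 of the 3 tested members and for 13.1% of all tested miRNAs. After TMM scaling the cluster summed to 3510 and 4192 CPM in the YAP5SA libraries, against 6028 and 6015 CPM in the vector libraries. The group means were 3851 ± 482 CPM in YAP5SA cells and 6021 ± 9.80 CPM in vector cells (SD, n = 2 each). Because the RNA came from whole cultures, fewer cells making the cluster and less RNA per cell cannot be told apart.

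miR-182-5p, the FOXO-targeting arm of the last hairpin, had 430 and 587 counts in YAP5SA replicates 1 and 2, against 747 and 613 counts in vector replicates 1 and 2. This was 2442 and 3072 CPM in the YAP5SA libraries, against 3947 and 4029 CPM in the vector libraries. The YAP5SA libraries lay below the vector libraries without overlap, and they differed more from each other than the vector libraries did. miR-182-5p ranked 36 and 39 among all miRNAs by count in the YAP5SA libraries, against 35 and 35 in the vector libraries.

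miR-183-5p, the arm of the first hairpin and best known from sensory cells, had 127 and 165 counts in YAP5SA replicates 1 and 2, against 288 and 239 counts in vector replicates 1 and 2. The normalized levels were 721 and 864 CPM in the YAP5SA libraries, against 1522 and 1571 CPM in the vector libraries. Each vector library was thus well above each YAP5SA library, by more than the gap between replicates of either group. Its rank by count was 67 and 69 in the YAP5SA libraries, against 60 and 59 in the vector libraries.

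miR-96-5p, the arm whose seed is mutated in inherited hearing loss, was the rarest of the 5p arms, with 45 and 31 counts in YAP5SA replicates 1 and 2, against 92 and 55 counts in vector replicates 1 and 2. Its levels were 256 and 162 CPM in the YAP5SA libraries, against 486 and 362 CPM in the vector libraries. The groups did not overlap, but the replicates of each group differed by about as much as the nearest libraries of the 2 groups. By count it ranked 142 and 214 in the YAP5SA libraries, against 107 and 116 in the vector libraries.

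**Figure D1:**
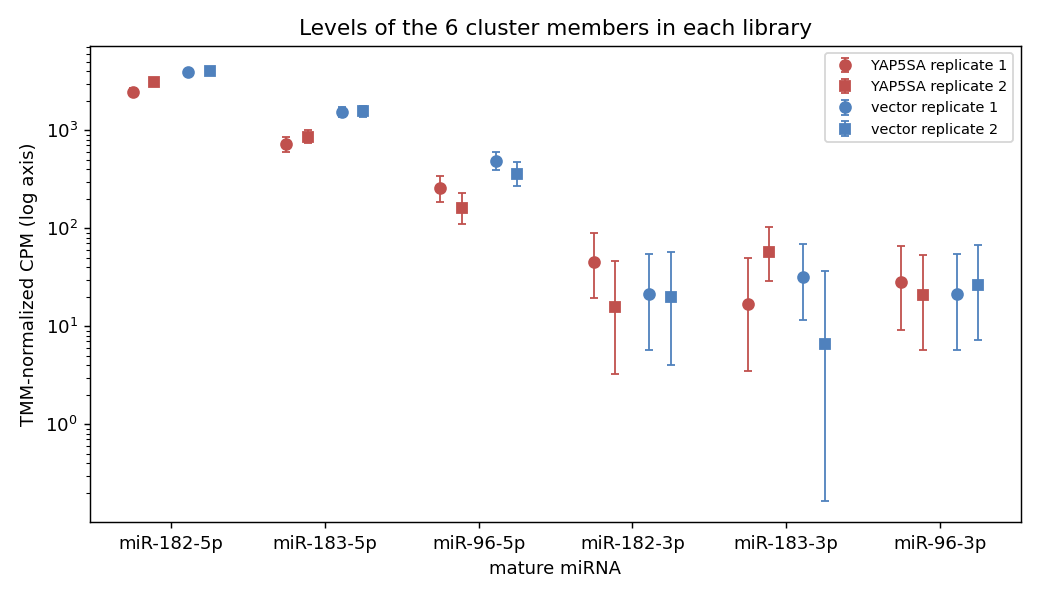
TMM-normalized CPM of the 6 members (log axis) in YAP5SA libraries (red) and vector libraries (blue); circles are replicate 1, squares replicate 2, and bars are exact 95% Poisson intervals, which cover counting error only. The 5p arms separate into 3 levels, from 2442 to 4029 CPM for miR-182-5p down to 162 to 486 CPM for miR-96-5p, while the intervals of the 3p arms overlap each other.

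The comparison of YAP5SA with vector asked whether these arms change when YAP is active. None of the 3 testable members passed. The estimate for miR-183-5p was 1.95-fold lower in YAP5SA cells, a log2 fold change of -0.96 with an SE of 0.29 (edgeR adjusted p = 0.061). For miR-96-5p it was 2.03-fold lower, at -1.02 with an SE of 0.42 (edgeR adjusted p = 0.13). For miR-182-5p it was 1.45-fold lower, at -0.53 with an SE of 0.26 (edgeR adjusted p = 0.22). These p-values came from edgeR's quasi-likelihood test, with Benjamini-Hochberg adjustment over the 602 miRNAs that passed its filter on low counts and a threshold of 0.05. Before adjustment p was 0.012 for miR-183-5p and 0.042 for miR-96-5p by edgeR, and 0.080 for miR-182-5p, so the estimates point down without reaching the threshold and do not show that the levels were alike. In the authors' deposited table the fold change was 0.801 with p = 0.024 for miR-183-5p, 0.543 with p = 0.075 for miR-96-5p and 0.906 with p = 0.078 for miR-182-5p. After Benjamini-Hochberg adjustment 0 miRNAs of the authors' deposited table had p under 0.05.

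Across the whole table, edgeR called 21 of 602 miRNAs lower in YAP5SA cells (3.49%) and 71 higher (11.8%). With library totals in place of TMM scaling the split was 12 lower and 147 higher, and by DESeq2 it was 22 lower and 17 higher. Without YAP5SA replicate 2 edgeR called 159 lower and 124 higher, and without YAP5SA replicate 1 it called 57 lower and 61 higher. Of the 3 tested members 0 were called in either direction, and 2 had an unadjusted p under 0.05 by edgeR. Of all 602 tested miRNAs 200 had an unadjusted edgeR p under 0.05, and 69 of these were lower in YAP5SA cells. The median log2 fold change of the 3 members was -0.96, beside 0.11 for all tested miRNAs, of which 45.3% lay under 0. That comparison takes in miRNAs of all levels, and the members were not tested against miRNAs of their own abundance. Among abundant miRNAs outside the cluster, let-7i-5p was at -0.93, miR-148a-3p at -1.08 and miR-27b-3p at -1.20. Others were miR-92a-3p at -0.12 and miR-30d-5p at 0.36. All 3 tested members had both YAP5SA libraries below both vector libraries in CPM, a pattern found in 26.6% of tested miRNAs. The members share a locus and are few, and no test was made on their count.

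**Figure D2:**
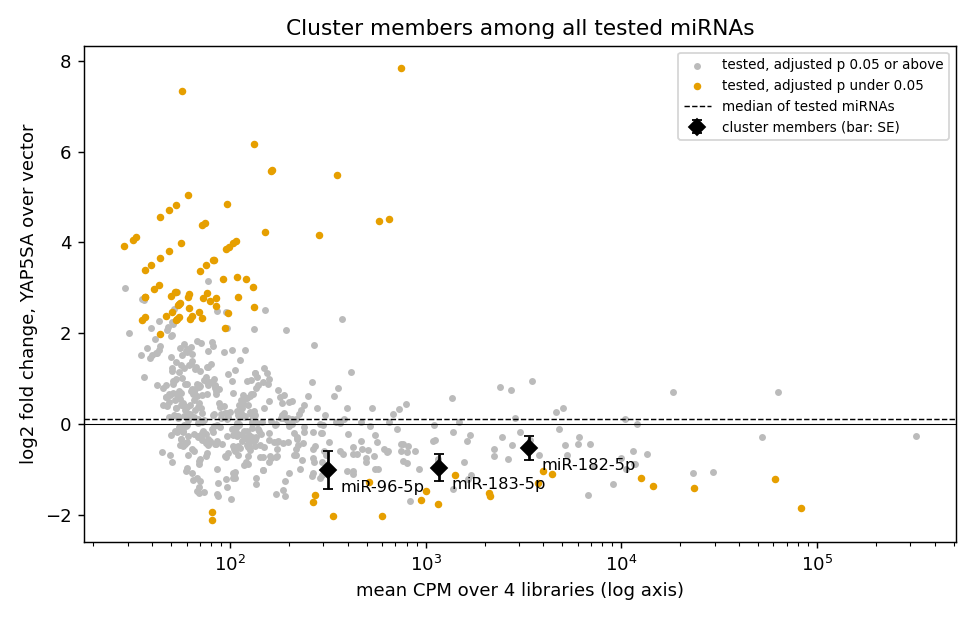
Log2 fold change of YAP5SA over vector against mean CPM (log axis) for the 602 tested miRNAs; orange points have an adjusted p under 0.05 by edgeR, black diamonds are miR-96-5p, miR-183-5p and miR-182-5p with SE bars, and the dashed line is the median of 0.11. The 3 members lie below the median at -1.02, -0.96 and -0.53, among grey points at similar levels.

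The size of the difference rested on how the libraries were scaled. With library totals the log2 fold change was -0.46 for miR-183-5p, -0.48 for miR-96-5p and -0.04 for miR-182-5p, while the median of all tested miRNAs was 0.61 in place of 0.11. Relative to that median the same 3 members were at -1.07, -1.09 and -0.64 with library totals, and at -1.08, -1.14 and -0.65 with TMM scaling, since a change of scaling shifts all miRNAs nearly alike. The distance from the median was smaller with a filter at a mean of 100 CPM, at -0.72, -0.76 and -0.29, and by limma on the authors' log2 values, at -0.25, -0.86 and -0.08. As unscaled CPM of the library total, miR-182-5p was at 3141 and 3058 in the YAP5SA libraries and 3439 and 3139 in the vector libraries, so its groups overlapped. miR-96-5p overlapped too, at 329 and 161 in the YAP5SA libraries and 424 and 282 in the vector libraries. miR-183-5p did not, at 928 and 860 in the YAP5SA libraries and 1326 and 1224 in the vector libraries. Without overlap and lower in YAP5SA on that scale were 1 of the 3 tested members and 13.1% of all tested miRNAs. Ranks within a library need no scaling, and by rank all 3 tested members stood lower in both YAP5SA libraries, as did 30.4% of tested miRNAs.

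The estimates also moved with the library left out. Members passed the threshold only without a YAP5SA library, where more miRNAs of the whole table were also called lower. Without YAP5SA replicate 2 the log2 fold changes were -1.66 for miR-183-5p, -1.30 for miR-96-5p and -1.27 for miR-182-5p. Without YAP5SA replicate 1 they were -0.94, -1.48 and -0.47 in the same order. Without vector replicate 1 they were -1.29, -1.14 and -0.84, and without vector replicate 2 they were -1.29, -1.62 and -0.87. In each of these fits the lone library of a group was assumed to vary like the other group. In all 12 alternatives each of the 3 members kept a log2 fold change under 0.

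**Figure D3:**
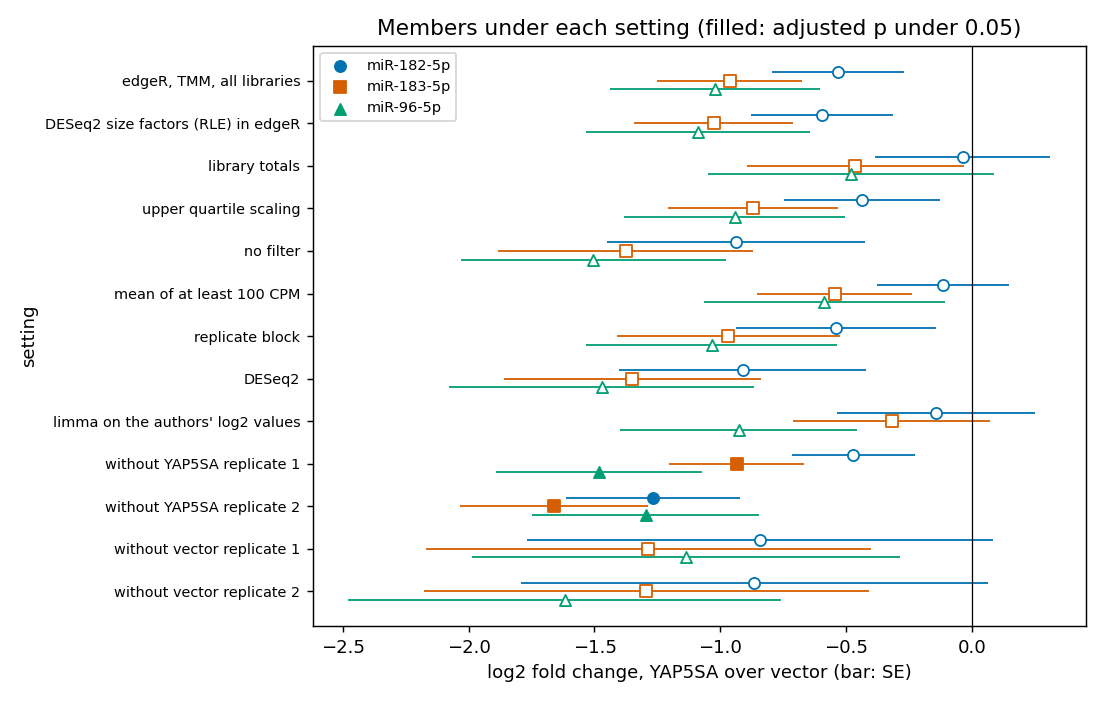
Log2 fold change of YAP5SA over vector with SE bars for miR-182-5p (circles), miR-183-5p (squares) and miR-96-5p (triangles) in the reported fit and under each of 12 alternatives; filled symbols have an adjusted p under 0.05. All symbols lie left of 0, from -1.66 to -0.04, and filled ones occur only where a YAP5SA library was left out.

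The makeup of the cluster was examined next, because the share of each hairpin within the cluster's own counts does not depend on scaling between libraries. The miR-182 hairpin had a larger share in both YAP5SA libraries than in either vector library. Counting both arms, it made up 70.9% of the cluster in YAP5SA replicate 1, with an exact Clopper-Pearson 95% interval of 67.1 to 74.4, and 73.7% (70.5 to 76.7) in YAP5SA replicate 2. In vector replicate 1 it made up 65.8% (63.0 to 68.6), and in vector replicate 2 it made up 67.3% (64.2 to 70.4). The counting intervals of single libraries partly overlap between the groups.

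Shares within a library sum to the whole, so a larger miR-182 share leaves less for the other hairpins and is not a separate result. The miR-183 hairpin showed the opposite order to miR-182. Its share was 21.04% (17.9 to 24.5) and 21.97% (19.2 to 25.003) in YAP5SA replicates 1 and 2, against 25.8% (23.3 to 28.4) and 26.2% (23.4 to 29.2) in vector replicates 1 and 2. The groups did not overlap and replicates agreed within 1 percentage point in each group. The miR-96 hairpin varied most between replicates, with shares of 8.09% (6.06 to 10.5) and 4.37% (3.06 to 6.02) in YAP5SA replicates 1 and 2, against 8.41% (6.87 to 10.2) and 6.45% (4.94 to 8.24) in vector replicates 1 and 2, and its groups overlapped.

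**Figure D4:**
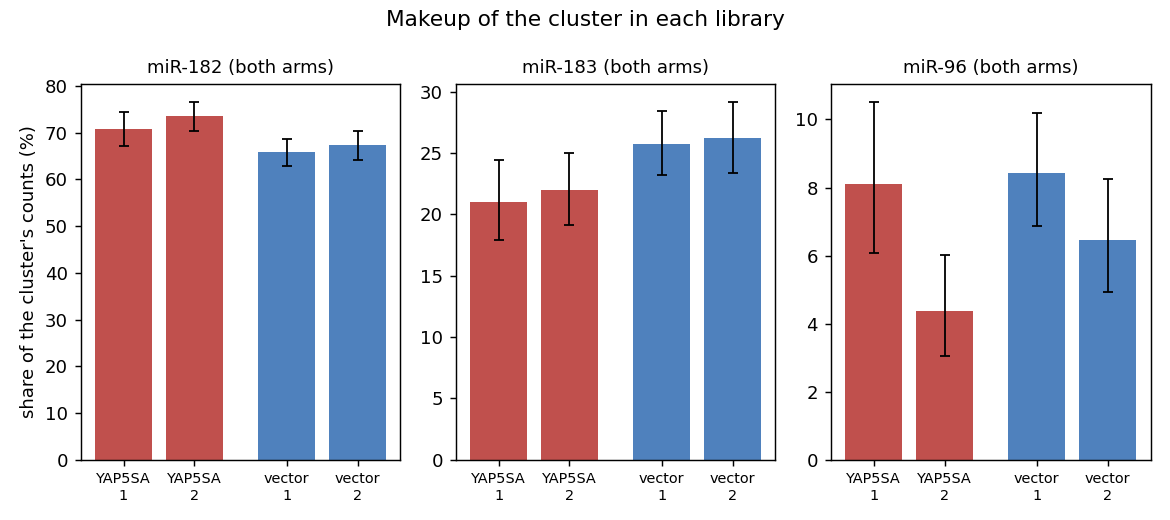
Share of the cluster's counts (%) taken by each hairpin, both arms summed, in YAP5SA libraries (red) and vector libraries (blue), with exact Clopper-Pearson 95% intervals that cover counting error only; each panel has its own axis from 0. miR-182 was at 70.9% and 73.7% in YAP5SA libraries, above both vector libraries, miR-183 was below both, and miR-96 overlapped.

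As group means, miR-182 made up 72.3% ± 1.97 of the cluster in YAP5SA cells and 66.6% ± 1.06 in vector cells (SD, n = 2 each). miR-183 made up 21.5% ± 0.66 in YAP5SA cells and 25.998% ± 0.33 in vector cells, and miR-96 made up 6.23% ± 2.63 in YAP5SA cells and 7.43% ± 1.39 in vector cells. The differences were 5.69 percentage points for miR-182, -4.49 for miR-183 and -1.20 for miR-96. A two-sided exact permutation test over the 4 samples gave p = 0.33 for miR-182 and for miR-183, which is the smallest p that 6 relabellings allow, and p = 0.67 for miR-96. Adjusted over the 3 hairpins, the exact permutation p was 0.50, 0.50 and 0.67. This test therefore cannot take the differences past 0.05 with 2 samples per group. Without YAP5SA replicate 2 the miR-96 difference turned to 0.66 percentage points, and without YAP5SA replicate 1 it was -3.06. On the authors' normalized values the miR-183 difference was -1.20 percentage points.

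The ratio of 5p arms restates this pattern, since nearly all reads of each hairpin came from its 5p arm. There were 3.39 and 3.56 reads of miR-182-5p per read of miR-183-5p in the YAP5SA libraries, against 2.59 and 2.56 in the vector libraries. The replicates of each group were close and the groups did not overlap, with a mean of 3.47 ± 0.12 in YAP5SA cells and 2.58 ± 0.02 in vector cells (SD, n = 2 each; exact permutation p = 0.33). The ratio of miR-182-5p to miR-96-5p was 9.56 and 18.9 in the YAP5SA libraries, against 8.12 and 11.1 in the vector libraries, with overlap. The ratio of miR-183-5p to miR-96-5p was 2.82 and 5.32 in the YAP5SA libraries, against 3.13 and 4.35 in the vector libraries, also with overlap. miR-96-5p, with the fewest reads of the 5p arms, is the denominator of both of these ratios.

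The arms of each hairpin were then compared. The 5p arm was the major product of all 3 hairpins in all 4 libraries, and the 3p arms had between 1 and 11 counts per library, 34 in all in the YAP5SA libraries and 22 in the vector libraries. None of them reached the filter on low counts, so the reported test did not cover them. miR-183-3p had 3 and 11 counts in YAP5SA replicates 1 and 2, against 6 and 1 in vector replicates 1 and 2. miR-96-3p had 5 and 4 counts in the YAP5SA libraries, against 4 and 4 in the vector libraries, and miR-182-3p had 8 and 3 in the YAP5SA libraries, against 4 and 3 in the vector libraries. At this depth the order of the 3p arms among themselves could not be told, since their counting intervals overlap in every library.

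Summed over the 4 libraries, the 3p arm made up 0.752% of miR-182 reads (18 of 2395, exact Clopper-Pearson 95% interval 0.446 to 1.19), 2.50% of miR-183 reads (21 of 840, 1.55 to 3.80) and 7.08% of miR-96 reads (17 of 240, 4.18 to 11.1). The hairpin with the fewest reads thus had the highest share of its 3p arm, while the 3p counts themselves were nearly the same for all 3 hairpins. For miR-96 the 3p arm took 5 of 50 and 4 of 35 reads in the YAP5SA libraries, against 4 of 96 and 4 of 59 reads in the vector libraries. The shares of the groups did not overlap, but the counting intervals of all 4 libraries did.

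For miR-183 the 3p share was 2.31% and 6.25% in the YAP5SA libraries, against 2.04% and 0.417% in the vector libraries. For miR-182 it was 1.83% and 0.508% in the YAP5SA libraries, against 0.533% and 0.487% in the vector libraries. In both hairpins 1 YAP5SA library stood above the rest, and it was replicate 2 for miR-183 and replicate 1 for miR-182. Without YAP5SA replicate 2 the YAP5SA share of miR-183 was 2.31%, and without YAP5SA replicate 1 that of miR-182 was 0.508%, beside 2.04% and 0.533% in vector replicate 1. The share of counts in rare miRNAs was highest in YAP5SA replicate 1 (10.5%), as was the 3p share of miR-182. The 3p share of miR-183 was highest in YAP5SA replicate 2, where rare miRNAs took 5.56%. The part of rare miRNAs in the 3p shares was not tested.

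**Figure D5:**
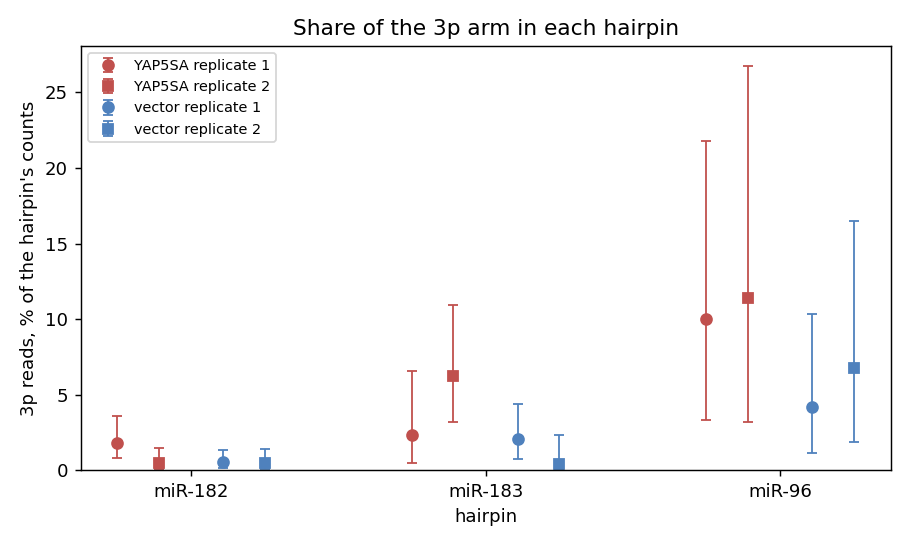
Share of 3p reads (%) in each hairpin, in YAP5SA libraries (red) and vector libraries (blue); circles are replicate 1, squares replicate 2, and bars are exact Clopper-Pearson 95% intervals that cover counting error only. miR-96 had the highest 3p share in each library (4.17% to 11.4%), while miR-182 (0.487% to 1.83%) and miR-183 (0.417% to 6.25%) overlap, with miR-183 the lower of them in vector replicate 2.

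One miRNA outside the cluster had the same bases 2 to 7 as a member. miR-1271-5p, encoded on chromosome 5, carries the full 7-base seed of miR-96-5p and is shown to compare it.
hsa-miR-1271-5p: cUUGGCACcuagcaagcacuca
It had 2 and 1 counts in the YAP5SA libraries and 0 and 1 in the vector libraries. Nearly all reads with the UUGGCA seed in these cells therefore belonged to miR-182-5p and miR-96-5p.

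Of miRNAs encoded within 2 Mb of the cluster on chromosome 7, 9 were in the table and 5 were tested. Of these 5, 4 had a log2 fold change under 0 (median -0.62), as did 45.3% of all tested miRNAs (median 0.11). edgeR called 0 of these 5, beside 3.49% of all tested miRNAs called lower and 11.8% called higher. miR-29a-3p, which restrains collagen genes, had 835 and 1151 CPM in the YAP5SA libraries, against 2874 and 1722 CPM in the vector libraries, and its log2 fold change was -1.21 with an SE of 0.35 (edgeR adjusted p = 0.057). miR-335-3p had 585 and 413 CPM in the YAP5SA libraries, against 756 and 782 CPM in the vector libraries, a log2 fold change of -0.62 (edgeR adjusted p = 0.25). The other tested neighbours were miR-335-5p at -0.59, miR-29b-3p at -0.73, whose sequence is also made by another gene, and miR-29b-1-5p at 0.24. miR-593-5p, miR-593-3p, miR-129-1-3p and miR-29a-5p had at most 14 counts in any library.

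The tested miRNAs outside the cluster whose profile over the 4 libraries was most like that of miR-182-5p were taken from the 314 with a mean of at least 100 CPM. Likeness was the root mean square difference of log2 CPM, each centred on its own mean. The nearest were miR-106b-3p at 0.08, let-7f-5p at 0.09, let-7d-5p at 0.09, miR-1301 at 0.10 and let-7e-5p at 0.11. The other members were farther away, miR-183-5p at 0.22 and miR-96-5p at 0.46, and these 2 differed by 0.36 from each other. Over 4 libraries such a profile holds little beyond the group difference and the replicate spread, so the order is a description.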

How the data were processed

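Small RNA libraries were made from total RNA with an NEB small RNA kit, per the labels' protocols, and titles gave each sample's group and replicate. The authors deposited 1 table of raw read counts for mature miRNAs, not normalized. The same deposited table holds log2 values of normalized read counts, with no method given in the sources used here, and the authors' own fold (a ratio) and p-value, whose test is likewise not given. FastQC and hg19 appear in the submitters' processing notes, and the aligner, the counter and its use of strand are not stated there. Of the table's lines, 2039 held a miRNA and 3 emptied ones were not analysed here.

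The deposited counts went into edgeR 4.0.16 under R 4.3.3 (quasi-likelihood, TMM, default low-count filter, group as the only term). The filter kept 602 miRNAs. SE is the size of the log2 fold change over the square root of F. CPM are scaled by effective library size, with group values as mean ± SD. Alternatives used limma 3.58.1, DESeq2 1.42.0, other scalings and filters, a replicate block and each library left out. The steps were tested on simulated data. Intervals cover counting error only, since the reads had no molecular identifiers. Shares and figures were made with Python 3.11.15, SciPy 1.17.1 and matplotlib 3.10.9. The named miRNAs were the 6 members, miRNAs sharing bases 2 to 7 with a 5p arm, those within 2 Mb, and the 5 most like miR-182-5p. The members and lists were chosen with earlier results of these data known.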

Additional observations from a re-analysis of the deposited data

How the results depend on the processing

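Of 96 alternative values 80 were counted as unchanged. Fold changes had to stay on the same side of the threshold, shares within the replicate SD, and counts of calls within a set ratio. With 2 replicates a share cannot leave the SD when 1 library is left out or counts are summed, so those outcomes were fixed beforehand. No member was called in the reported fit, so no called member could reverse. The miR-96 share difference, not called, changed sign without YAP5SA replicate 2 (0.66 percentage points in place of -1.20). With all libraries kept, 0 members were called by edgeR, DESeq2 or limma under any of 8 alternatives. Leaving out each library in turn gave log2 fold changes of -1.66 to -0.94 for miR-183-5p, -1.62 to -1.14 for miR-96-5p and -1.27 to -0.47 for miR-182-5p. The count of all miRNAs called lower, 21 as reported, was 12 with library totals, 1 with a filter at a mean of 100 CPM (315 tested), 34 with the replicate block and 0 by limma on the authors' log2 values, where 228 had an unadjusted p under 0.05. It was 0 to 159 with a library left out, in fits that tested 679 to 1042 miRNAs. The cause was not tested. On the authors' normalized values the miR-183 share differed by -1.20 percentage points in place of -4.49. Same-numbered libraries had a correlation of deviations of -0.004. With 2 replicates this value cannot decide whether they were handled together, and the labels state no pairing. With the replicate block miR-183-5p was at -0.97 (adjusted p = 0.099, edgeR), miR-96-5p at -1.04 (0.13) and miR-182-5p at -0.54 (0.37), and no call of a member changed. With no filter the 3p arms were testable and none passed, with log2 fold changes of 0.51 for miR-183-3p, -0.39 for miR-96-3p and 0.06 for miR-182-3p (lowest adjusted p = 0.85, edgeR). Depth limits the 3p arms most, with at most 11 counts in a library.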

Other observations

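The deposited table lists a start and an end for most mature miRNAs without a chromosome or strand. Among hairpins with both arms placed, the 5p arm had the lower coordinate in 218 of 218 on the plus strand and in 184 of 185 on the minus strand, with strands from RefSeq. On the minus strand a 5p arm should lie at the higher coordinate, as it does in RefSeq for MIR183, MIR96 and MIR182. The positions in the table were therefore not used, and those of the cluster were taken from GENCODE and RefSeq.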
